A study of Mus musculus with 32 samples.

Results

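Strand asymmetry of cisplatin damage and of its repair was compared gene by gene in mouse spleen, in 2 Damage-seq and 2 XR-seq libraries, 4 of the 32 libraries of the series. Within each library the reads of a gene on its transcribed strand (TS) were set against the reads on its non-transcribed strand (NTS). Of 25040 genes with a position in the GRCm38 annotation, 16236 had at least 20 reads over both strands in each of the XR-seq libraries and 12801 in each of the Damage-seq libraries, and these were tested. All 4 libraries came from spleens of wild-type female C57BL/6J mice, 6 to 7 months old, that received cisplatin at 10 mg/kg by intraperitoneal injection. The mice were injected at zeitgeber time 1 and killed at zeitgeber time 5, where zeitgeber time counts hours from lights on. The labels give 2 h as the time in another field, so the interval of 4 h rests on the zeitgeber times. Kidney, liver and lung of the same design, each with 2 Damage-seq and 2 XR-seq libraries of cisplatin-treated mice, served for comparison. No Damage-seq or XR-seq library of untreated mice was used here, and RNA-seq of treated and control spleens served to rank genes by RNA level.

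Cisplatin links neighbouring guanines of one DNA strand, and the main adduct forms at GG dinucleotides. Damage-seq reads mark adducts still in the DNA at the time of death. XR-seq reads are the short oligomers that nucleotide excision repair has cut out, so they mark repair. In transcribed genes an RNA polymerase that stalls at an adduct calls in the Cockayne syndrome proteins, a route named transcription-coupled repair that acts on the TS, while global repair acts on both strands. Spleen is made mostly of B and T lymphocytes, with red pulp macrophages, erythroid precursors and a vascular and stromal frame. The libraries were made from whole organ, so fewer cells of a type and less signal per cell cannot be told apart.

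The strands of a gene offer unequal numbers of GG sites, so each ratio was expressed per GG. The first 60 bases of the longest coding exon of 4 genes are shown because the genes stand for the patterns described below, namely near-complete TS repair (Znhit6), strong loss of TS damage (Gatad2a), an X-linked gene with loss of TS damage (Kdm6a) and NTS repair (Muc6). The NTS is given as the gene reads and the TS is its complement, both 5′ to 3′, in GRCm38, with runs of G of at least GG in capitals. Znhit6 exon 1 is shown at chr3:145576368-145576427, where the NTS window held 11 GG and the TS window 3.
Znhit6 NTS: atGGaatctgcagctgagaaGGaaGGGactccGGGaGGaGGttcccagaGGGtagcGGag
Znhit6 TS: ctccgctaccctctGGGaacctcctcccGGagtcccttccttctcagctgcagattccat
Gatad2a exon 10 is shown at chr8:69913165-69913224, with 4 GG on the NTS and 5 on the TS.
Gatad2a NTS: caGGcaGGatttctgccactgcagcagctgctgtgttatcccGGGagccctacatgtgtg
Gatad2a TS: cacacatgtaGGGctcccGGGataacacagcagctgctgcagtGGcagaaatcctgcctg
Kdm6a exon 17 is shown at chrX:18254004-18254063, with 6 GG on the NTS and 3 on the TS.
Kdm6a NTS: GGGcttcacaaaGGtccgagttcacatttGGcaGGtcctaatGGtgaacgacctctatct
Kdm6a TS: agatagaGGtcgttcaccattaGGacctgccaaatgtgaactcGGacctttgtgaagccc
Muc6 exon 31 is shown at chr7:141640552-141640611, with 4 GG on the NTS and 6 on the TS.
Muc6 NTS: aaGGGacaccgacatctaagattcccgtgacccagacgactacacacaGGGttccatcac
Muc6 TS: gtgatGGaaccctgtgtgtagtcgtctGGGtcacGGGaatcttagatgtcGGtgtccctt
Over whole gene bodies the difference was smaller. Znhit6 held 1696 GG on the NTS and 1416 on the TS, Gatad2a 6203 and 5625, Kdm6a 4610 and 4360, and Muc6 1494 and 2090.

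The spleen Damage-seq libraries were the shallowest of their assay, with 1571167 and 2211070 reads in genes against 2440217 to 6441367 in the other organs. Spleen XR-seq held 10658675 and 34649883 reads, a 3.25-fold difference between replicates. A gene had a median of 21 and 31 Damage-seq reads, and 100 and 338 XR-seq reads. Among the tested genes the exact 95% binomial (Clopper-Pearson) interval of the TS share was 26.3 and 21.9 percentage points wide at the median in Damage-seq, and 5.58 and 3.18 points in XR-seq. These intervals cover counting error only. The spread between libraries beyond counting error went the other way, with a common dispersion of 0.135 in XR-seq and 0.00557 in Damage-seq, so the counting intervals do not rank the assays by the size of a strand difference that could be called. The shallower XR-seq library also had empty strands in many genes. In library 1 the NTS had 0 reads in 1455 tested genes, and 1048 of these had at least 10 NTS reads in library 2. Markers of spleen cells were present in the RNA, with Cd79a at 536 and 526 RPKM in the 2 cisplatin-treated libraries. The treated spleen RNA also held pancreatic enzyme RNA (Cela2a 131 and 87.6 RPKM against 0.0600 and 0.00684 in control spleens).

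Repair in spleen lay mostly on the TS and remaining damage lay slightly more on the NTS. The TS took 88.6% and 88.5% of all XR-seq reads in genes and 46.5% and 46.5% of all Damage-seq reads. The median gene had 10.97 and 10.48 times as many XR-seq reads per GG on the TS as on the NTS, with quartiles of log2 1.31 to 5.15 in library 1 and 1.36 to 4.82 in library 2. The median gene had 0.853 and 0.854 times as many Damage-seq reads per GG on the TS. The TS was above the NTS in 85.0% and 85.7% of genes in XR-seq, and below it in 68.4% and 68.1% of genes in Damage-seq. The replicates of an assay thus gave nearly the same median, and the assays pointed in opposite directions. For the same genes, kidney XR-seq had median log2 ratios of 2.91 and 2.75, liver of 2.52 and 2.32, and lung of 3.63 and 3.49. The Damage-seq medians were -0.24 and -0.15 for kidney, -0.35 and -0.35 for liver, and -0.26 and -0.28 for lung. Spleen ranked second to lung in XR-seq, with both spleen libraries just under both lung libraries, and its Damage-seq medians lay inside the range of the kidney libraries.

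In the test of each gene across the 8 libraries of an assay (edgeR's quasi-likelihood test, Benjamini-Hochberg adjustment), 11781 of 16236 genes (72.6%) had more XR-seq reads per GG on the TS and 1385 (8.53%) had fewer. In Damage-seq 2597 of 12801 genes (20.3%) were lower on the TS and 118 (0.922%) were higher. The Damage-seq count was 1365 lower and 54 higher without spleen library 1, and 882 and 30 without spleen library 2. A scaling that centres most genes at equal strands (TMM over the strand columns) moved all XR-seq ratios by log2 -3.10 and all Damage-seq ratios by 0.25, and gave 5021 higher and 4486 lower in XR-seq and 897 higher and 1298 lower in Damage-seq. With that scaling a ratio says how a gene stands against the other genes, not whether its own strands differ, and ratios below are per library total.

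**Figure D1:**
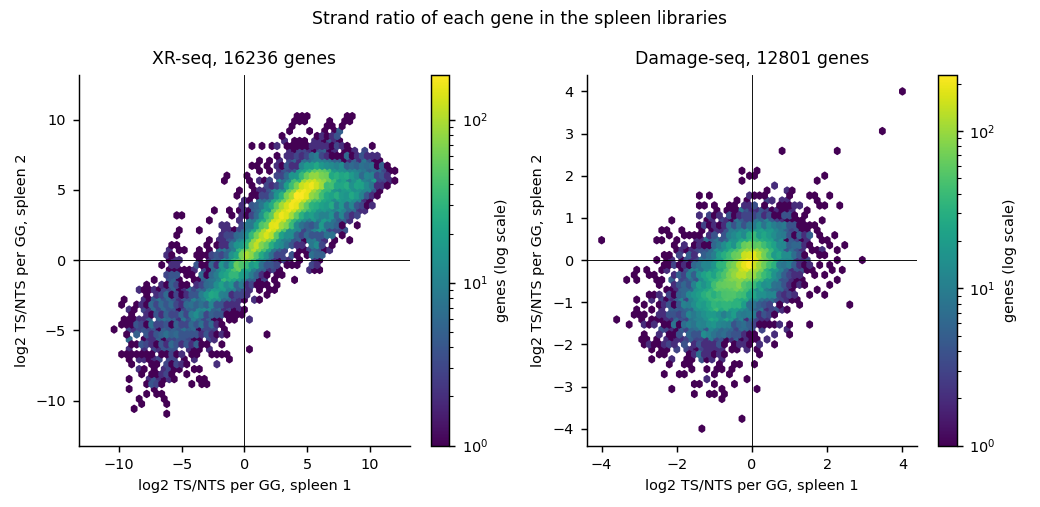
Log2 TS/NTS reads per GG of each tested gene in spleen library 1 (horizontal axis) against library 2 (vertical axis) for XR-seq (16236 genes) and Damage-seq (12801 genes), with colour for the number of genes on a log scale. XR-seq genes follow the diagonal with a tail of higher values in library 1, and Damage-seq genes form a wider cloud around values just below 0. Values beyond an axis are drawn at its edge, and the Damage-seq axes span a narrower range.

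Among protein-coding genes that overlap no other gene and had at least 500 XR-seq reads in each library, 2132 of 2172 were called TS higher and 18 TS lower. Znhit6, which takes part in building small nucleolar RNA particles, had 545 TS and 0 NTS reads in library 1 and 2239 and 10 in library 2, a fitted log2 ratio of 8.65 (SE 1.28, adjusted p = 0.00034). Mcm3, a subunit of the replicative helicase, had 621 and 0 reads in library 1 and 1826 and 15 in library 2, with a log2 ratio of 8.05 (SE 1.27, adjusted p = 0.000496). Helq, a DNA helicase that acts at stalled forks, had 1193 and 0 reads in library 1 and 4466 and 40 in library 2, with a log2 ratio of 7.60 (SE 0.794). In each of these genes nearly all excised oligomers came from the TS in both libraries, and library 1 stood higher because it held no NTS read. Fam114a2 was the best measured of the 12, with 689 and 2 reads in library 1 and 2847 and 18 in library 2, and a log2 ratio of 7.71 (SE 0.482). The other genes among the 12 with the largest ratio were Cpne3, Arv1, Rpp30 (a subunit of ribonuclease P), Snx6 (a sorting nexin of the endosome), Asah2 (neutral ceramidase), Elmod2, Ttc8 (a BBSome subunit of the primary cilium) and Wdr5 (a core subunit of histone H3 lysine methyltransferases), at log2 7.49 to 8.15. All 12 kept their call when either spleen library was left out.

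Genes without any read on a strand in both libraries have no fitted value that can be read, and only a bound is given, from a floor of 3 counts over the pair of libraries. There were 79 such genes without NTS reads and 73 without TS reads in XR-seq. The highest bound was on the NTS, in the antisense gene 3200001D21Rik, with 215 and 796 NTS reads and the NTS at least 344-fold higher per GG. Oc90, which encodes a protein of the inner ear, had 166 and 420 NTS reads, at least 205-fold higher on the NTS. On the TS side Phf11c had 196 and 606 TS reads, which makes the TS at least 272-fold higher per GG. Zfp93, a zinc finger gene, had 175 and 681 TS reads, at least 242-fold higher. Fam50a, an X-linked splicing-related gene, had 98 and 400 TS reads, at least 200.3-fold higher. In Damage-seq 1 gene was of this kind: AA474408 had 163 and 222 TS reads and no NTS read, at least 129-fold higher, although it holds 199 GG on the TS and 200 on the NTS.

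The weakest strand asymmetry in well-covered XR-seq genes was rare. Only 2 genes at the same read minimum had a 95% interval of the log2 ratio inside -0.5 to 0.5. The larger spread between XR-seq libraries (common dispersion 0.135 against 0.00557 in Damage-seq) also widens these intervals. The number of such genes is therefore not comparable between the assays. Traf4, an adaptor of TNF receptor signalling with 5.48 RPKM, had 688 TS and 475 NTS reads in library 1 and 1668 and 1588 in library 2, a log2 ratio of 0.07 (interval -0.34 to 0.49). Ankrd24 had 298 and 300 reads, then 695 and 902, a log2 ratio of 0.05 (interval -0.39 to 0.49). In both genes library 1 fell above 0 and library 2 below it.

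Among protein-coding genes without overlap and with at least 500 XR-seq reads in each library, the 12 with the lowest XR-seq ratio had RNA at 0.165 to 2.04 RPKM. Muc6, a gastric mucin at chr7:141633456-141655319, had 18 TS and 572 NTS reads in library 1 and 55 and 1883 in library 2, so the NTS was 46.5-fold higher per GG (log2 -5.54, SE 0.267, adjusted p = 8.72e-07). Plekhb1 had 15 and 548 reads, then 52 and 2182 (log2 -5.08, SE 0.249). Wnt4, a secreted signalling protein of kidney and gonad development, had 27 and 780 reads, then 79 and 2235 (log2 -4.84, SE 0.165). In these 3 genes both libraries gave the same direction and nearly the same size, with RNA at 0.196 to 0.293 RPKM. The remaining genes among the 12 with the smallest ratio were Rflna, Nacad, Mroh2a, Loxl4, Ttc39a, Adamtsl4, Itga11, Mok and Inka2, at log2 -4.41 to -1.25, and Ttc39a (log2 -1.34, adjusted p = 0.0910) and Inka2 (-0.85, adjusted p = 0.0908) lost their call without spleen library 1.

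Each of these genes but Ttc39a and Mok had as its nearest opposite-strand gene one that lay past its 3′ end. A gene on the opposite strand past the 3′ end is transcribed toward the first gene, and transcripts that run beyond its end copy the strand that is the NTS of the first gene. Ap2a2, an adaptor subunit of endocytosis at 14.3 RPKM, lay 445 bp past Muc6. Rab6a, a GTPase of the Golgi at 29.2 RPKM, lay 1624 bp past Plekhb1, and Cdc42, a GTPase of the cytoskeleton at 276 RPKM, lay 19970 bp past Wnt4. Mcl1, a survival factor of the BCL2 family, lay 13025 bp past Adamtsl4. Over all genes that overlap no other gene, 285 of 334 (85.3%) of those called TS lower in XR-seq had an opposite-strand gene of at least 1 RPKM within 20000 bp past the 3′ end, against 1323 of 5268 (25.1%) of those called TS higher and 2048 of 6981 (29.3%) of those tested. Within 5000 bp the shares were 66.8%, 14.2% and 17.7%. This comparison and both distances were chosen after the values were seen.

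Genes under 1 RPKM made the contrast plainer. With such a neighbour, 109 of 567 were TS higher and 239 (42.2%) were TS lower, and their summed log2 ratio was -0.08 and -0.07. Without one, 628 of 1288 (48.8%) were TS higher and 42 (3.26%) TS lower, and the summed log2 ratio was 2.69 and 2.68. Remaining damage in the same genes was even between strands, at 0.01 and -0.02 with the neighbour and -0.03 and -0.01 without. Whether transcription past the end of the neighbour gives the NTS reads was not tested.

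Annotation overlap went with the same direction. Of 7741 tested genes that overlap a gene on the opposite strand 13.3% were TS lower in XR-seq, against 4.78% of 6981 that overlap no gene. Antisense genes, whose TS is by definition the NTS of a host gene, were TS lower in 354 of 626 and TS higher in 84. Long intergenic non-coding RNA genes were TS higher in 174 of 543 and TS lower in 71, and protein-coding genes in 11316 and 833 of 14521. Reads of overlapping genes cannot be assigned to either gene by strand alone, so the ratios of such genes are uncertain.

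The strongest strand asymmetry of remaining damage lay in expressed genes with less damage on the TS. Among genes without overlap with at least 100 Damage-seq reads in each library, 179 of 607 were called TS lower and 6 TS higher. Cntrl, a centriole protein, had 17 TS and 88 NTS reads in library 1 and 23 and 77 in library 2, a log2 ratio of -1.81 (SE 0.261, adjusted p = 7.39e-08), or 3.50-fold less damage on the TS. Gatad2a, a subunit of the NuRD chromatin remodelling complex, had 24 and 101 reads, then 38 and 134, a log2 ratio of -1.78 (SE 0.211, adjusted p = 9.64e-11). The TS share of Gatad2a was 19.2% (exact 95% interval 12.7 to 27.2) and 22.1% (16.1 to 29.0), against 47.6% of its GG sites. Both libraries of each gene lay well under the share of GG sites.

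The other genes among the 12 with the smallest Damage-seq ratio followed. Rab8b, a GTPase of membrane traffic, had 19 and 84 reads, then 41 and 104 (log2 -1.53). Capzb, the beta subunit of actin capping protein, had 37 and 87, then 47 and 143 (log2 -1.41). Foxo3, a transcription factor of stress and quiescence, had 35 and 106, then 57 and 129 (log2 -1.22). Arhgap25, Ccdc6, Mycbp2 (a ubiquitin ligase), Ino80 (a chromatin remodelling ATPase), Arfgef2 and Cnot4 (a ubiquitin ligase of the CCR4-NOT complex) followed at log2 -1.29 to -1.19. Gm47283 also belonged to the 12, at log2 -1.29, but it is annotated on chromosome Y and the mice were female, so its value is uncertain, and where its reads originate was not tested. It was also the 1 gene of the 12 that lost its call when a library was left out (log2 -0.92, adjusted p = 0.0512 without spleen library 1).

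Among protein-coding genes without overlap and with at least 100 Damage-seq reads in each library, the 6 with damage called higher on the TS had log2 ratios of 0.20 to 0.61, and larger ratios were called in genes with fewer reads, such as Rundc3a and Cr2 below. Cfap58, a protein of cilia and flagella with 0.0209 RPKM, had 129 TS and 85 NTS reads in library 1 and 172 and 102 in library 2, a log2 ratio of 0.61 (SE 0.155, adjusted p = 0.00189). Adamts18, listed at 0 RPKM, had 143 and 105 reads, then 220 and 145 (log2 0.46, SE 0.132). Ins2, whose annotated body of chr7:142678656-142743381 is far longer than the insulin coding part, gave log2 0.60, Jph2 gave 0.57 and Dgkk 0.49. Cfap58 and Adamts18 lost their call without library 2 (log2 0.53 and 0.37, adjusted p = 0.155 and 0.286), Dgkk without library 1 (log2 0.22, adjusted p = 0.588), and Ins2 and Jph2 without either. Chd1, a chromatin remodelling ATPase at 16.6 RPKM, had 872 and 882 reads, then 1131 and 1227, and its log2 ratio of 0.20 (SE 0.0468) was above 0 only per GG, since it became -0.07 without the adjustment for GG, and its call was lost without library 1 (log2 0.15, adjusted p = 0.0840). Chd1 also held 22.2 and 21.2 times the Damage-seq reads per GG of the median gene in spleen, and 15.6 to 25.6 times in the other organs, on both strands.

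A small or absent strand difference of damage was common: 418 genes at this read minimum had an interval inside -0.5 to 0.5, and 257 of them were called TS higher in XR-seq. Equal signs in both libraries, which held in 607 genes at this minimum, were not required here. Among all genes without overlap that were tested in both assays, 3295 of 4253 were called TS higher in XR-seq. The range of -0.5 to 0.5 also holds the median ratio of all tested genes (log2 -0.22), so a gene inside it may still have the usual TS deficit. It also holds Chd1, which was called TS higher. The 8 with the highest RNA level were Elf4, Rasgrp3, Sh3kbp1, Sgk1, Chd1, Arhgef6, Dock11 and Gpm6b, and 5 of these (Elf4, Sh3kbp1, Arhgef6, Dock11 and Gpm6b) lie on the X chromosome. Elf4, an ETS transcription factor of lymphocytes at 24.6 RPKM, had 62 TS and 61 NTS reads in library 1 and 76 and 72 in library 2 (log2 -0.05, interval -0.46 to 0.35), while its XR-seq reads were 905 and 147, then 2753 and 396. Rasgrp3, a Ras activator of B cells, had 78 and 91 reads, then 116 and 115 (log2 -0.03, interval -0.36 to 0.31). Sgk1, a kinase induced by glucocorticoids, had 97 and 103, then 161 and 135 (log2 0.08, interval -0.22 to 0.38). Elf4, Rasgrp3 and Sgk1 were repaired mainly on the TS, and the intervals of their damage ratios included 0.

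**Figure D2:**
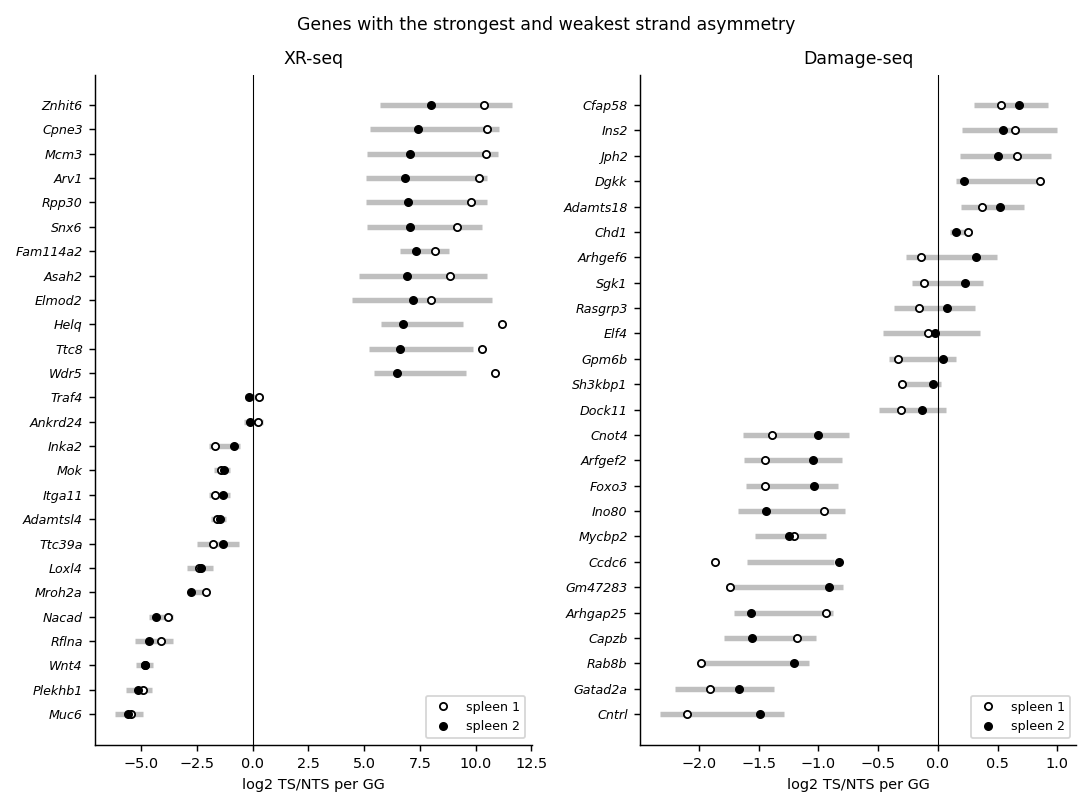
Log2 TS/NTS reads per GG of the genes with the strongest and weakest strand asymmetry in XR-seq (left) and Damage-seq (right), with open circles for spleen library 1, filled circles for library 2 and grey bars for the 95% interval of the fitted ratio. The 12 top XR-seq genes have fitted values of 7.49 to 8.65 and the 12 lowest -5.54 to -1.25, whereas Damage-seq genes span -1.81 to 0.61.

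The assays ran opposite to each other across genes, with much noise in Damage-seq. Over 10743 genes tested in both, Pearson's r between the mean log2 ratios of XR-seq and Damage-seq was -0.40 (Spearman's rho -0.43). The replicates set the scale for this: r was 0.87 between the XR-seq libraries and 0.53 between the Damage-seq libraries. With at least 100 reads in each of the 4 libraries (2817 genes) r was -0.38 between the assays and 0.71 between the Damage-seq replicates, and over 4253 genes without overlap it was -0.37. These coefficients are across genes, which share libraries and GG counts and are not independent replicates, so no p is given.

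Nearly every gene with less damage on the TS had more repair there, while most genes with more TS repair showed no damage difference that could be called. Of all 10743 genes tested in both, 8266 were called TS higher and 686 TS lower in XR-seq. In Damage-seq 2558 of the 10743 were called TS lower and 94 TS higher. Of 2558 genes called TS lower in Damage-seq, 2520 (98.5%) were called TS higher in XR-seq. Of 8266 genes called TS higher in XR-seq, 2520 (30.5%) were TS lower in Damage-seq, 26 (0.315%) were TS higher and 5720 (69.2%) were not called. Of 686 genes called TS lower in XR-seq, 31 (4.52%) were TS higher in Damage-seq, 8 (1.17%) were TS lower and 647 (94.3%) were not called. Ranked on the XR-seq ratio and cut into 10 equal groups, genes went from summed Damage-seq ratios of 1.02 and 1.04 in the lowest group to 0.709 and 0.722 in the ninth and 0.710 and 0.704 in the highest. The share called TS lower in Damage-seq rose from 1.49% to 44.3% in the ninth group and was 36.8% in the highest. The highest and the ninth group thus differed little, and in opposite directions in the 2 libraries. In genes without overlap the Damage-seq ratio was 0.714 and 0.721 in the ninth group and 0.682 and 0.676 in the highest.

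**Figure D3:**
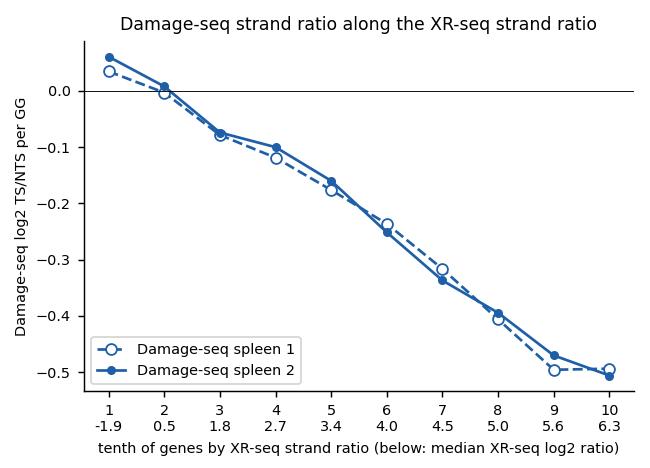
Log2 TS/NTS reads per GG of Damage-seq, summed over genes, in 10 equal groups of genes ranked on the XR-seq ratio (horizontal axis, with the median XR-seq log2 ratio of each group), in spleen library 1 (open) and 2 (filled). Both lines start just above 0 in the lowest group and reach their lowest values in the 2 highest.

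Among protein-coding genes without overlap that met both read minimums and were called TS higher in XR-seq and TS lower in Damage-seq, Arfgef2, which activates ARF GTPases at the Golgi, had the widest gap between assays. Its XR-seq reads were 2834 on the TS and 7 on the NTS in library 1 and 9397 and 131 in library 2 (log2 6.96, SE 0.485), and its Damage-seq reads were 29 and 81, then 58 and 122 (log2 -1.21, SE 0.206). Lmf1, a factor of lipase maturation, had XR-seq reads of 4337 and 21, then 13183 and 97 (log2 7.27), with Damage-seq at 76 and 91, then 81 and 129 (log2 -0.54). Sap130, Pphln1, Cnot4, Crtc1, Cfdp1 and Mtm1 followed, with XR-seq ratios of log2 6.22 to 6.85 and Damage-seq ratios of -1.19 to -0.71. In Damage-seq Lmf1, Pphln1 and Cfdp1 lost their call without spleen library 2 (log2 -0.32, -0.54 and -0.61), Mtm1 without library 1 (-0.68), and Sap130 (-0.72 and -0.69) and Crtc1 (-0.78 and -0.82) without either.

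Genes with the same direction in both assays were few, 26 TS higher and 8 TS lower, and of these the protein-coding genes without overlap are named. Jph2, a junctophilin of muscle membranes, was TS higher in XR-seq (148 and 9 reads, then 562 and 59) and in Damage-seq (66 and 48, then 111 and 90). Rundc3a had 138 and 49 XR-seq reads, then 455 and 156, and Damage-seq reads of 26 and 6, then 27 and 8 (log2 1.64, SE 0.446). Chd1, Mcoln3, Zc4h2 and Atp8b3 were the other 4 genes named as TS higher in both. Named as TS lower in both were Sctr, Lca5l, 1700061G19Rik and P2rx5, an ATP-gated channel of lymphocytes with XR-seq reads of 39 and 339, then 92 and 1230, and Damage-seq reads of 7 and 21, then 8 and 33. Of these 10 genes each lost its Damage-seq call when at least 1 spleen library was left out, P2rx5 with log2 -1.62 (adjusted p = 0.0564) and Rundc3a with 1.47 (adjusted p = 0.101) without library 1. The XR-seq call was also lost by 4 of the 6 genes TS higher in both and by 2 of the 4 TS lower in both.

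RNA level separated the assays further. Genes listed at 0 RNA reads had summed XR-seq ratios of 0.758 and 0.707, and the ratio over 5 equal groups of increasing RPKM was 0.869 and 0.873, 1.95 and 1.89, 8.51 and 8.17, 11.9 and 11.8, and 10.4 and 10.7. Damage-seq ratios were 0.981 and 1.02 without RNA, then 0.998 and 1.01, 0.993 and 1.01, 0.888 and 0.889, 0.728 and 0.722, and 0.631 and 0.627. The TS excess of repair was highest in the fourth RNA group and slightly lower in the top group, whereas the deficit of TS damage widened up to the top group. The same order held for genes without overlap, where the top groups gave XR-seq ratios of 15.3 and 15.2, then 12.9 and 13.3, and Damage-seq ratios of 0.705 and 0.699, then 0.625 and 0.609. Ranking on control RNA gave Damage-seq ratios of 0.741 and 0.731, then 0.634 and 0.630 in the top groups.

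Gene length moved the assays apart in expressed genes of at least 1 RPKM. The XR-seq ratio went from 4.35 and 4.61 in genes under 10 kb to 8.08 and 8.11 at 10 to 30 kb, 12.1 and 12.0 at 30 to 100 kb, 16.9 and 16.4 at 100 to 300 kb, and 19.4 and 18.6 in the 128 genes of 300 kb or more. The Damage-seq ratio was 0.731 and 0.723, 0.697 and 0.689, 0.703 and 0.703, 0.789 and 0.782, and 0.869 and 0.878 in the same classes. The longest genes thus had the strongest TS excess of repair and the weakest TS deficit of damage, while their median RNA level was also lower (2.72 RPKM against 8.79 at 10 to 30 kb). The part of RNA level in this was not tested.

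**Figure D4:**
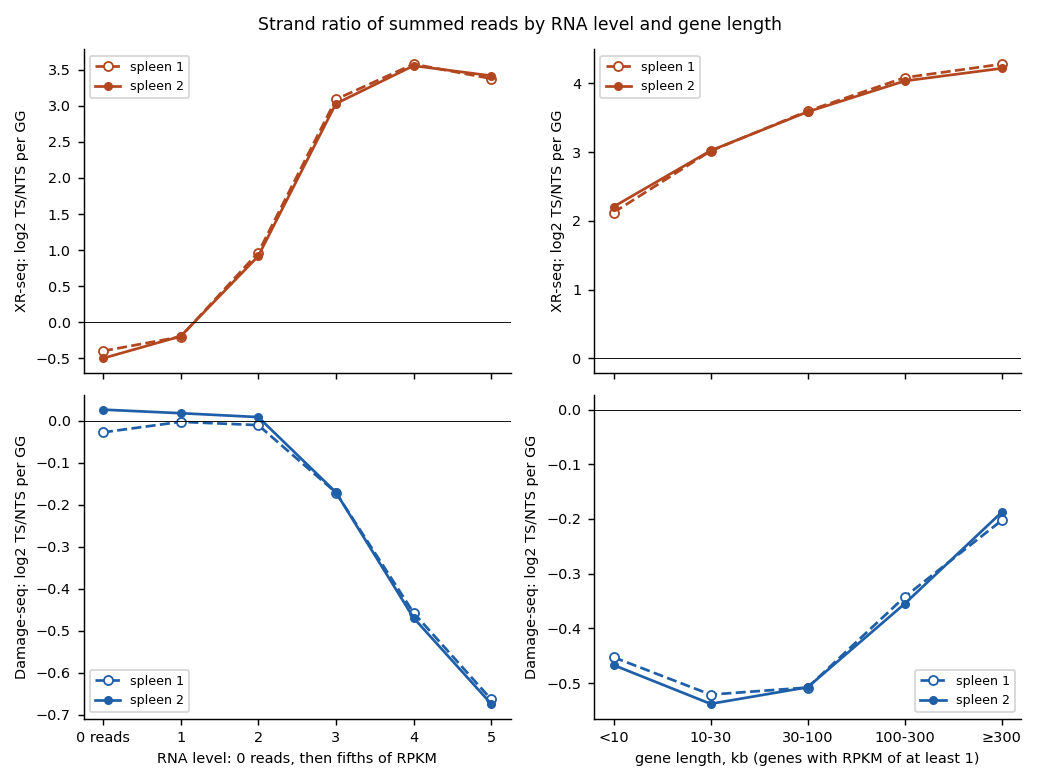
Log2 TS/NTS reads per GG summed over genes, for XR-seq (top) and Damage-seq (bottom), by RNA level (left, genes at 0 RNA reads and then 5 equal groups of RPKM) and by gene length (right, genes of at least 1 RPKM), in spleen library 1 (open) and 2 (filled). XR-seq rises with RNA level up to the fourth group and with length up to the longest class, and Damage-seq falls below 0 with RNA level and returns toward 0 in genes of 300 kb or more.

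Lists of genes by function were described by counts beside those of all genes (72.6% TS higher in XR-seq, 20.3% TS lower in Damage-seq, with medians of log2 3.47 and -0.22). Most DNA repair and damage response genes were TS higher in XR-seq, as were most genes of similar RNA level. In the fourth RNA group (3.52 to 11.9 RPKM) 3814 of 4194 genes were TS higher (median log2 4.40). In Damage-seq 1056 of its 2886 tested genes were TS lower (median -0.55). Median RNA levels were 11.8 RPKM for the excision repair, 10.8 for the p53 and 10.6 for the immediate-early and clock list. Of 38 nucleotide excision repair genes 37 were TS higher in XR-seq (median log2 4.71), and 7 of 28 were TS lower in Damage-seq (median -0.46). Ercc6, the Cockayne syndrome B protein that acts at stalled polymerases, had 1606 TS and 14 NTS XR-seq reads in library 1 and 5054 and 94 in library 2 (log2 6.50, SE 0.351), with Damage-seq reads of 29 and 66, then 36 and 88 (log2 -0.92, SE 0.244, adjusted p = 0.0029, and 0.131 without library 2). Ercc4, a subunit of the nuclease that cuts 5′ of the lesion, had 1247 and 14, then 3992 and 42 XR-seq reads (log2 6.50). Ercc2, a helicase of TFIIH, had the lowest Damage-seq ratio of the list, with 4 and 26 reads, then 10 and 37 (log2 -1.99, SE 0.423), a call kept without either library, although it overlaps Klc3 on the opposite strand. Ercc8, Uvssa and Xpc, which act in transcription-coupled or global recognition of damage, were TS higher in XR-seq at log2 6.37, 7.15 and 5.34.

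Several low members of this list overlap a gene on the opposite strand, but so do Ercc2 (log2 4.58) and Ddb1 (5.29, overlapping Tkfc). The part of overlap in this was not tested. Xpa, which verifies the lesion, had 850 TS and 663 NTS reads in library 1 and 3313 and 2659 in library 2 (log2 0.36, SE 0.139), and it overlaps Ncbp1 on the opposite strand. Its call was lost without either spleen library (adjusted p = 0.174 and 0.140). Lig3 (log2 0.999, overlapping Rffl) and Ddb2 (1.30, overlapping Acp2) were other low members with an overlap.

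Of 28 p53 target genes 27 were TS higher in XR-seq (median log2 4.31) and 5 of 14 TS lower in Damage-seq (median -0.72). Apaf1, which forms the apoptosome, had 1841 and 24 XR-seq reads, then 4994 and 129, and Sesn1, a stress-induced inhibitor of growth signalling, had 1892 and 47, then 5480 and 158. Bbc3, a death inducer of the BCL2 family, was lower, with 604 and 385, then 2156 and 1110. Of 29 immediate-early and clock genes 28 were TS higher (median 3.71) and 5 of 13 TS lower in Damage-seq. The clock activator Arntl had 3504 and 153 XR-seq reads, then 11421 and 539, and Damage-seq reads of 73 and 114, then 89 and 146 (log2 -0.72, adjusted p = 0.000423, and 0.0600 without library 2). Its partner Clock had 1288 and 175, then 4468 and 682 XR-seq reads, and 35 and 61 Damage-seq reads in both libraries.

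Families present in most cell types are given beside protein-coding genes as a whole, of which 77.9% were TS higher in XR-seq and 22.4% TS lower in Damage-seq. In the top RNA group (11.9 RPKM or more) 3734 of 4122 genes were TS higher in XR-seq (median 4.12). In Damage-seq 1052 of its 2255 tested genes were TS lower (median -0.78). Median RNA levels in that range belonged to proteasome (47.7 RPKM), splicing factor (57.1), respiratory chain (38.7) and ribosomal protein genes (315). Zinc finger and replication genes had medians of 2.46 and 6.88 RPKM. Proteasome subunit genes were TS higher in 36 of 38 (median 4.56) and TS lower in Damage-seq in 7 of 15 (median -0.88). Hnrnp and SR splicing factor genes were TS higher in 24 of 29 (median 3.41), and 6 of the 9 with enough Damage-seq reads were TS lower (median -1.30). Hnrnpr, an RNA-binding protein of splicing, had 6 TS and 42 NTS Damage-seq reads in library 1 and 18 and 51 in library 2. Nuclear-encoded respiratory chain genes were TS higher in 77 of 87 and TS lower in Damage-seq in 6 of 20. Zinc finger protein genes were TS higher in 313 of 337 (median 4.76) and TS lower in Damage-seq in 40 of 195. Cytosolic ribosomal protein genes were TS higher in 61 of 76 (median 3.72), and only 1 of these short genes had enough Damage-seq reads to be tested. DNA replication and mitosis genes were TS higher in 27 of 34 (median 3.83) and TS lower in Damage-seq in 2 of 21 (median -0.15).

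B cell genes were TS higher in XR-seq in 17 of 30 and TS lower in 1 (median 2.91), and TS lower in Damage-seq in 4 of 23 (median -0.20), although their median RNA level was 60.4 RPKM against 0.797 over all genes. Pax5, the transcription factor that fixes B cell identity, had 1564 and 79 XR-seq reads, then 6257 and 603 (log2 3.93), and Damage-seq reads of 148 and 159, then 241 and 284 (log2 -0.08, adjusted p = 0.679). Ebf1, an early B cell factor, had 2766 and 191 XR-seq reads, then 9221 and 643, and Damage-seq reads of 278 and 376, then 352 and 499 (log2 -0.41, adjusted p = 4.71e-05). Bach2, a repressor of plasma cell fate, had 6025 and 368 XR-seq reads, then 17765 and 1062. These 3 transcription factors were repaired mainly on the TS in both libraries.

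Several B cell surface genes were not. Cd79a, the immunoglobulin alpha chain of the B cell receptor, had 33 TS and 79 NTS XR-seq reads in library 1 and 154 and 343 in library 2 (log2 -1.39, SE 0.460, adjusted p = 0.0217), at 531 RPKM and with no overlapping gene, and its call was lost without either library (adjusted p = 0.0995 and 0.0981). Cr2, complement receptor 2, had 90 and 108 reads, then 345 and 487 (log2 -0.26, adjusted p = 0.535), and in Damage-seq 21 and 14, then 33 and 15 (log2 1.01, SE 0.361, adjusted p = 0.0318, and 0.0801 and 0.503 without libraries 1 and 2). Fcer2a, the low-affinity IgE receptor, had 75 and 215, then 325 and 624 (log2 -0.87, adjusted p = 0.129). Cd72 (162 and 335, then 522 and 1065) and Cxcr5 (195 and 217, then 845 and 501) overlap Tesk1 and Bcl9l on the opposite strand. These genes were picked from the list after their values were seen.

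T and NK cell genes were TS higher in 16 of 26 (median 3.598) and TS lower in Damage-seq in 3 of 23. Zap70, a kinase of T cell receptor signalling, had 181 and 6 XR-seq reads, then 870 and 59 (log2 4.58), and it overlaps the gene model Gm18828 on the opposite strand. Satb1, a chromatin organiser of T cells, had 1295 and 73, then 4694 and 343, with Damage-seq at 37 and 69, then 55 and 89 (log2 -0.80, adjusted p = 0.00238, and 0.0816 and 0.0553 without libraries 1 and 2). Cd247, the zeta chain of the T cell receptor complex, had 772 and 725, then 2678 and 2216 (log2 0.32, adjusted p = 0.112), and it overlaps Pou2f1 on the opposite strand. Macrophage and neutrophil genes were TS higher in 10 of 23, and erythroid genes in 12 of 23 with 1 TS lower. That gene was Alas2, the first enzyme of haem synthesis in red cells, with 0 TS and 242 NTS reads in library 1 and 75 and 898 in library 2, and it overlaps Apex2 on the opposite strand. Epb41, a protein of the red cell membrane skeleton, had 3397 and 135, then 12174 and 434. Endothelial and stromal genes were TS higher in 17 of 28 and lower in 2, with Pecam1, an adhesion molecule of endothelium, at 1887 and 227, then 7354 and 493.

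Genes of other tissues and families of low RNA level were called TS higher in XR-seq less often than all genes (72.6%). Their direction varied. Summed log2 XR-seq ratios were -0.99 and -1.22 for kidney tubule and -1.37 and -1.03 for pancreatic enzyme genes. They were 1.37 and 1.45 for hepatocyte, 1.49 and 1.31 for alveolar and airway, and 1.29 and 1.07 for neuronal genes. Kidney tubule genes were TS higher in XR-seq in 2 of 12 and TS lower in 5, hepatocyte genes in 3 and 3 of 11, alveolar and airway genes in 3 and 2 of 9, neuronal genes in 5 and 1 of 16, and pancreatic enzyme genes in 0 and 2 of 5. The pancreatic list was not low in RNA, with a median of 67.6 RPKM in treated spleen. Medians of the other tissue lists were 0.0136 (neuronal) to 1.68 RPKM (hepatocyte). None of the tested genes of these 5 lists was called TS lower in Damage-seq, and 2 were called TS higher. Cyp2f2, a cytochrome P450 of airway club cells, had 20 TS and 4 NTS reads in library 1 and 41 and 8 in library 2 (log2 1.90, SE 0.460, adjusted p = 0.00106), and Syn1, a protein of synaptic vesicles, had 64 and 37, then 103 and 74 (log2 0.53, adjusted p = 0.0497). The neuronal gene Dlg2, a scaffold of the synapse and one of the longest genes, had 875 TS and 902 NTS Damage-seq reads in library 1 and 1154 and 1079 in library 2. Olfactory receptor genes were TS lower in 6 and TS higher in 2 of 12 in XR-seq, and TS lower in 2 of 39 in Damage-seq. Hox genes were TS higher in 9 of 16, vomeronasal receptor genes in 1 of 3 and replication-dependent histone genes in 4 of 8.

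Genes of the X chromosome had a weaker TS deficit of damage than autosomal genes. In female mice 1 X chromosome of each cell is largely silenced, with some genes known to escape. Among genes of at least 1 RPKM that overlap no gene, the summed Damage-seq log2 ratio was -0.27 and -0.26 on the X (213 genes) against -0.45 and -0.47 on autosomes (5600 genes). In XR-seq it was 3.41 and 3.55 against 3.79 and 3.79. The X ranked first of 20 chromosomes for the Damage-seq ratio nearest to 0 in both spleen libraries and 19th for the XR-seq ratio, and only chromosome 3 had a lower XR-seq ratio. RNA levels were then compared among those of these genes that were at least 10 kb long. At 15 RPKM or more the Damage-seq ratio was -0.23 and -0.23 on the X (45 genes) against -0.72 and -0.76 (1048 genes). At 5 to 15 RPKM it was -0.39 and -0.37 (43 genes) against -0.57 and -0.59 (1297 genes). At 1 to 5 RPKM it was -0.22 and -0.19 (55 genes) against -0.24 and -0.25 (1255 genes). The gap was thus widest in the most expressed genes. The XR-seq difference did not hold at each RNA level, since at 1 to 5 RPKM the ratio was 4.13 and 4.09 on the X against 3.99 and 3.96. At 5 to 15 RPKM it was 3.13 and 3.34 against 4.12 and 4.08, and at 15 RPKM or more 3.67 and 3.87 against 3.89 and 3.92.

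The direction was the same in all 8 libraries of the 4 organs in each assay. The X minus autosome difference was 0.16 to 0.52 in Damage-seq and -0.38 to -0.08 in XR-seq (two-sided exact sign-flip permutation test over libraries, p = 0.00781 in each assay, adjusted p = 0.00781 over both, the smallest that 8 libraries allow). Libraries of an organ may share features, and all 8 libraries compare genes drawn from the same X and the same autosomes. The p therefore measures how repeatable the difference was over libraries, and it does not separate the X from other features of those genes. The comparison was chosen after the values were seen. Of the genes known to escape silencing some were called and some were not, and differences among them were not tested. Kdm6a, a histone demethylase, had 31 TS and 79 NTS Damage-seq reads in library 1 and 48 and 87 in library 2 (log2 -0.998, SE 0.225, adjusted p = 0.000431). Kdm5c, also a histone demethylase, had 17 and 33, then 21 and 51 (log2 -0.99, SE 0.333), and Eif2s3x, a translation initiation factor, had 5 and 17, then 9 and 35 (log2 -1.81, SE 0.456). Those 3 genes were called, but Kdm6a lost its call without library 1 (log2 -0.78, adjusted p = 0.0844), Eif2s3x without library 2 (-1.69, adjusted p = 0.164) and Kdm5c without either (adjusted p = 0.0667 and 0.340). Pbdc1 (25 and 32, then 29 and 39), Utp14a (18 and 14, then 12 and 17, overlapping 9530027J09Rik) and Xist (7 and 19, then 22 and 17, overlapping Tsix) were not called, while Ddx3x (5 and 10, then 5 and 6) had too few reads to be tested. Without the escape genes the X ratio was -0.26 and -0.24. The part of X inactivation in this was not tested.

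**Figure D5:**
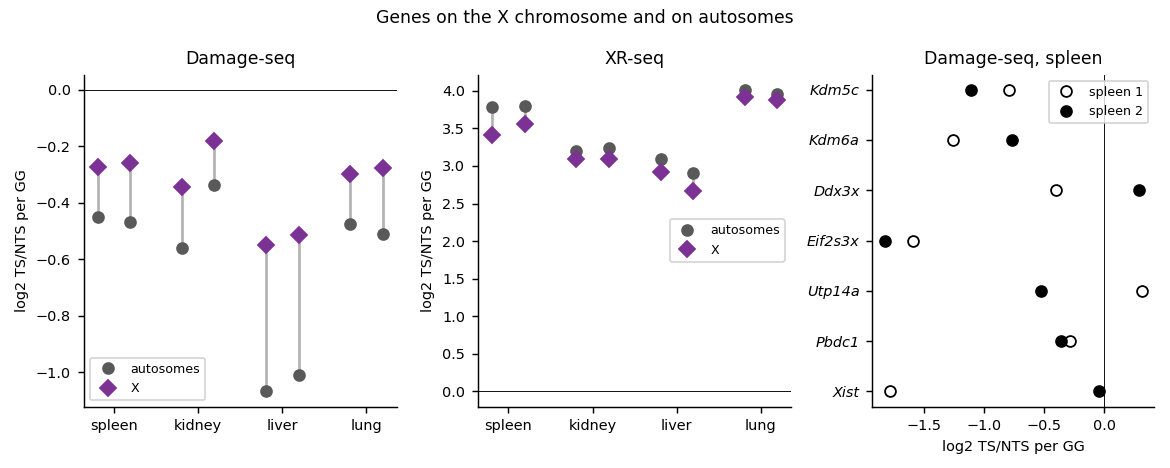
Log2 TS/NTS reads per GG summed over genes of at least 1 RPKM without overlap, on autosomes (circles) and on the X (diamonds), in each Damage-seq (left) and XR-seq (middle) library of the 4 organs, and the Damage-seq ratio of 7 X-linked genes in the spleen libraries (right, open for library 1 and filled for library 2). The X lies nearer to 0 than the autosomes in all 8 libraries of each assay.

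Strand ratios that differed between spleen and the other organs were tested as spleen minus the mean of kidney, liver and lung. In XR-seq 1214 of 15404 genes (7.88%) had a higher TS ratio in spleen and 459 (2.98%) a lower one, and in Damage-seq 211 of 12727 (1.66%) were higher and 53 (0.416%) lower. Without spleen library 1 the counts were 204 and 108 in XR-seq and 49 and 23 in Damage-seq, and without library 2 they were 890 and 245, and 44 and 12. B cell genes were higher in spleen XR-seq in 9 of 22 and T and NK cell genes in 7 of 19, with medians of 1.65 and 2.65 against 0.37 over all genes, and none was lower. Pax5 was higher by log2 3.76, Ccr7, the receptor that guides T cells into lymphoid tissue, by 4.07, the T cell factor Lef1 by 3.28 and Cr2 by 3.57. Of these, Lef1 kept its call without either spleen library, Pax5 (adjusted p = 0.0913) and Cr2 (0.0508) lost it without library 1, and Ccr7 lost it without either (0.108 and 0.0921).

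Among single genes without overlap, those more TS-repaired in spleen included lymphocyte and myeloid genes. Sh2d2a, a T cell adaptor, had log2 1.96 and 1.87 in spleen against -9.54 to -2.78 in the 6 other libraries, with 7.55 RPKM in spleen and at most 0.595 elsewhere. Lax1, an adaptor of lymphocyte signalling, had 8.68 and 3.74 against -1.99 to 1.87, and Pirb, an inhibitory receptor of B and myeloid cells, had 4.70 and 4.02 against -2.89 to 0.42. Khk, the ketohexokinase of fructose metabolism, had 9.05 and 6.41 in spleen against 0.70 to 4.79, at 12.8 RPKM in spleen, 485 in kidney and 436 in liver. Less TS-repaired in spleen were Nr1i2, the xenobiotic receptor PXR of liver (-4.42 and -2.31 against -0.70 to 3.89), Acox2, an oxidase of bile acid synthesis (-8.61 and -4.49 against -2.75 to 1.14), and Tmprss2, an epithelial protease (-1.60 and -2.47 against -0.34 to 4.91), all between 0.0316 and 0.130 RPKM in spleen. In each of these genes both spleen libraries lay outside the range of the other organs. The genes were named for the size of this difference, so the separation adds no further evidence. Nr1i2, Acox2 and Tmprss2 kept their call without either spleen library, whereas Lax1 (log2 3.76, adjusted p = 0.137) and Khk (3.91, 0.0508) lost it without library 1, and Sh2d2a (0.0834 and 0.0510) and Pirb (0.235 and 0.137) lost it without either.

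In Damage-seq more genes had a higher than a lower ratio in spleen, and the 8 named for a lower one were Irf4, Plekho2, Lbh, Rassf2, Agap2, Il21r, Cntrl and Pfkl. Irf4, a transcription factor of B cell activation and plasma cells at 28.5 RPKM, had 4 TS and 16 NTS reads in library 1 and 8 and 27 in library 2, with log2 ratios of -1.87 and -1.69 against -0.44 to 0.51 in the other organs (difference -1.89, SE 0.510, adjusted p = 0.0229). Il21r, the receptor of interleukin 21, had 15 and 33, then 17 and 58 reads, and ratios of -0.96 and -1.59 against -0.22 to 0.42. Plekho2, Lbh, Rassf2 and Agap2 were lower by log2 1.40 to 1.70 and each had its highest RNA level in spleen. Higher ratios in spleen, near or above 0, belonged among others to the splicing factor U2af2 (19 and 17, then 42 and 26) and to Lbp, a lipopolysaccharide-binding protein made by liver (35 and 20, then 44 and 26). These rest on few reads. Without spleen library 1 the difference of Irf4 (-1.80) was no longer called, and without library 2 neither were those of Irf4 (-2.05), Il21r (-1.01), U2af2 (1.51) and Lbp (1.72). Of the 8 genes named for a lower and the 8 for a higher Damage-seq ratio in spleen, 0 kept their call without each library in turn.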

How the data were processed

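Damage-seq and XR-seq reads were counted per gene and strand by the authors, and the deposited values are raw counts of the TS and the NTS, not normalised. The submitters' notes name cutadapt, BWA, Picard, STAR, featureCounts, DESeq2 and mm10, and the study's methods say that duplicate reads were removed. Versions are not given in the sources used here. RNA-seq files hold counts, from which RPKM was computed with gene lengths of the annotation. Groups came from the labels, in which the submitters have exchanged control and cisplatin for lung and spleen RNA-seq. By the study's methods the counted reads carry GG at the damage position, so ratios were adjusted for GG on each strand.

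Files shared 25058 gene identifiers, 1 row without an identifier was dropped, and 25040 genes were placed on GRCm38. edgeR 4.0.16 (R 4.3.3) fitted the 16 strand columns of the 8 libraries of an assay with a term per library and a TS term per organ, leaving 4 residual degrees of freedom. The offset was the log of the library total plus the log of GG on that strand. Genes had at least 10 GG on each strand and at least 20 reads, in the spleen libraries for the spleen test and in all 8 for the organ test, and were called at an adjusted p of 0.05. Log2 ratios of single libraries used a pseudocount of 0.5. The TS and NTS of a library come from the same DNA, so the library is the pairing block of the fit. The labels do not say whether Damage-seq and XR-seq libraries of one number share a mouse. Nothing more is known of the replicates than their numbers, so p-values measure the spread between these libraries. edgeR draws the spread of each gene toward an estimate shared over genes. That estimate had a weight of 117 degrees of freedom in Damage-seq and 3.97 in XR-seq, beside the 4 residual ones. Damage-seq p-values thus rest mostly on the spread shared over genes and organs, and little on the spread of the gene itself.

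On simulated counts the Damage-seq step (12477 genes) recovered 17.8% of 1.5-fold and 62.6% of 2-fold strand differences, and the XR-seq step (15833 genes) recovered 10.6% of 2-fold, 52.2% of 4-fold, 61.2% of 8-fold and 83% of 16-fold differences, with 6 and 0 false calls. Only 90 and 91 genes per fold differed in Damage-seq and 46 to 49 in XR-seq, and all others had equal strands. In the data 72.6% of XR-seq genes were called TS higher. The adjustment of p depends on that share, so these rates do not give the sensitivity of the calls made here.

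Named genes were protein-coding, without overlap and with the same sign in both libraries (this last not for the weakest). They were the 12 highest and 12 lowest called per assay at 500 XR-seq or 100 Damage-seq reads, the 8 most expressed with an interval inside -0.5 to 0.5, the 8 widest apart between assays, the 8 with most Damage-seq reads called the same way in both, the 8 highest and lowest organ differences, and the 3 members with most XR-seq reads of each of 14 lists and 9 families. Members and lists were chosen with earlier results of these data known. Other genes are named after their values were seen. Python 3.11.15, scipy 1.17.1, DESeq2 1.42.0 and samtools 1.23.1 were also used. Some genes that the rule names or that belong to a list are not reported here, and they stay in the counts.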

Additional observations from a re-analysis of the deposited data

Results flagged for a closer look

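Strand ratios that differed between spleen and the mean of kidney, liver and lung, by edgeR's test of the difference itself, numbered 1214 higher and 459 lower in XR-seq and 211 higher and 53 lower in Damage-seq. Among the genes without overlap with the widest XR-seq difference, Pif1, a DNA helicase, was higher in spleen by log2 6.61, Sh2d2a by 6.10, Crhr1, the receptor of corticotropin-releasing hormone, by 6.07, Lax1 by 5.44, Pirb by 4.77, Khk by 4.63 and Map3k19 by 4.59. The XR-seq difference was -6.93 for Smlr1, -6.51 for the calcium channel gene Trpv6, -5.29 for Nr1i2, -4.996 for Acox2, -4.56 for 1810046K07Rik, -4.24 for Tmprss2 and -4.19 for Mroh3. Efemp1 (higher) and Oc90 (lower) completed these groups of 8, and since a strand had no reads in either spleen library they are given no fitted value.

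In Damage-seq the difference was -1.89 for Irf4, -1.70 for Plekho2, -1.52 for Lbh, -1.50 for Rassf2, -1.40 for Agap2, -1.37 for Il21r, -1.37 for Cntrl and -1.35 for Pfkl, a subunit of phosphofructokinase. It was 1.86 for Cyp4f17, 1.84 for U2af2, 1.83 for Hscb, 1.79 for Trappc3, 1.69 for Lbp, 1.65 for Tmbim6 and 1.53 for the splicing gene Srrm1. When each spleen library was left out in turn, 3 of the 8 genes named for a higher and 4 of the 8 named for a lower XR-seq ratio kept their call both times, and 0 of 8 and 0 of 8 in Damage-seq.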

How the results depend on the processing

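The library is the pairing block of each test, since its strands were read together. With no replicate block 63 genes were TS higher in Damage-seq (118 with it), the XR-seq organ difference gave 2019 higher and 742 lower, and the Damage-seq one 43 and 18. With DESeq2 Damage-seq gave 18 TS higher and 1295 TS lower, and the organ difference gave 2151 and 733 in XR-seq and 12 and 5 in Damage-seq. TMM over the strand columns gave 5021 TS higher and 4486 TS lower in XR-seq and 897 and 1298 in Damage-seq, with organ differences of 606 and 832 in XR-seq and 131 and 116 in Damage-seq. Without overlapping genes, which leaves fewer genes to test, XR-seq gave 5224 and 335, Damage-seq 32 and 946, and the organ differences 263 and 114, and 93 and 22. A test against a minimum ratio gave 38 TS higher and 1702 TS lower in Damage-seq and organ differences of 210 and 132, and 31 and 14. Centring on genes without RNA gave 8302 and 143 for the XR-seq organ difference. The filters of the study gave 620 higher in XR-seq, and 129 higher and 24 lower in Damage-seq. XR-seq thinned to Damage-seq totals gave 662 TS lower and organ differences of 721 and 251. Without the GG adjustment 225 genes were TS higher in Damage-seq, and with at least 50 reads 1663 were TS lower. Leaving out a spleen library gave 30 to 54 TS higher and 882 to 1365 TS lower in Damage-seq, organ differences of 204 to 890 higher and 108 to 245 lower in XR-seq, and of 44 to 49 and 12 to 23 in Damage-seq. The mean of the library medians was log2 3.42 in XR-seq and became 3.35 with a pseudocount of 2, 3.36 without the GG adjustment, 3.65 with at least 50 reads and 3.87 without overlapping genes. In Damage-seq it was -0.23 and became -0.22, -0.26, -0.18 and -0.23. Pearson's r between the assays was -0.401, -0.389 without spleen replicate 1 and -0.299 without spleen replicate 2. The cause of these changes was not tested.

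TMM shifts all ratios, and under it the XR-seq log2 ratio changed sign for Traf4 (-3.03), Ankrd24 (-3.05), Chd1 (-1.18), Atp8b3 (-0.75), Rundc3a (-1.86), Cd247 (-2.78), Spi1 (-0.81), Ank1 (-0.53), Col4a2 (-0.072), Serpinc1 (-2.83), Abca3 (-0.10), Ager (-2.74), Dlg2 (-0.037), Xpa (-2.74), Bbc3 (-2.15), Clock (-0.28), Rps19 (-0.87), Rpl11 (-0.18), Psmb7 (-0.19), Ndufaf2 (-0.16), Hnrnpf (-1.12), Zfp710 (-1.23), Zfp609 (-0.58), Hist1h1c (-2.58), Olfr56 (-0.95), Hoxb3 (-0.84), Hoxa3 (-1.55) and Hoxb4 (-1.63). In Damage-seq the sign changed for Dlg2 under TMM (0.24) and for Chd1 without the GG adjustment (-0.071). The escape genes, the distance of 5000 bp and the length classes without overlapping genes were alternatives chosen after the data were seen.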

Other observations

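AA474408, a gene model of unknown coding status on chromosome 7, had 163 and 222 Damage-seq reads on its TS and none on its NTS in spleen, while XR-seq gave 82 and 80 reads in library 1 and 243 and 188 in library 2. No other tested gene had an empty strand in both Damage-seq libraries.

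The cisplatin-treated spleen RNA held further pancreatic enzyme RNA, with Prss2 at 286 and 229 RPKM against 0.380 and 0.304 in control spleens and Pnlip at 179 and 106 RPKM against 0 and 0.0322. XR-seq reads of these genes were few, with 0 and 8 for Prss2 and 0 and 23 for Pnlip. Alb, the liver protein albumin, was at 116 RPKM in treated library 1, listed at 0 in treated library 2, and at 11.3 and 4.06 RPKM in the controls.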
